A study of Mus musculus with 6 samples.

Results

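RNA of the insulin-like growth factor (IGF) axis in mouse liver cells was measured for 10 of the 19057 genes named on the array: the ligand Igf1, its receptor Igf1r, the acid-labile subunit Igfals and the binding proteins Igfbp1 to Igfbp7. Every probe annotated to these symbols was taken, which gave 23 of the 45281 probes on the array. Of the 23 probes, 16 were above background (a detection p-value under 0.05 against the negative control probes) on at least 1 array, 8 were above background on all 6 arrays, and 7 were above background on none. Igfbp6 was the member with no probe above background on any array.

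The 6 Illumina arrays held 1 sample of each condition, so no condition had a replicate. EpCAM+ cells were sorted by flow cytometry from the non-parenchymal fraction as oval cells (the ductal progenitors that appear when hepatocytes cannot divide). They came from DDB1F/F;Alb-Cre+/+ mice at 4 weeks, from DDB1F/F;Alb-Cre+/- mice at 6 weeks, and from DDB1F/F;Mx1-Cre+/- mice. A further EpCAM+ sample came from wild type mice on a diet with DDC, the liver toxicant 3,5-diethoxycarbonyl-1,4-dihydro-collidine. Hepatocytes came from DDB1F/F;Alb-Cre+/+ mice and from wild type mice. EpCAM+ cells were set against hepatocytes to see what sets oval cells apart, and mutant against DDC EpCAM+ cells to compare the genetic with the chemical model. The labels give the strain of all samples as a mix of C57BL/6 and 129, and give no age for the other 4 samples, so that age and model cannot be told apart. Ddb1 encodes the adaptor of the Cullin4 ubiquitin ligase. Alb-Cre deletes it in hepatocytes through the albumin promoter, and Mx1-Cre acts after poly(I:C) in liver and in other cells, blood cells among them. DDB1-positive hepatocytes are known to regrow in such livers, so a hepatocyte sample of a mutant need not be free of Ddb1. The study described the oval cells of these mice as expressing DDB1, so mutant EpCAM+ cells are named after the mouse.

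Most circulating IGF1 is made by hepatocytes under growth hormone, which acts through its receptor, JAK2 and STAT5. In blood, IGF1 travels mainly in a complex with IGFBP3 or IGFBP5 and the acid-labile subunit, while the other binding proteins hold it in smaller complexes or at the cell surface. Adult hepatocytes carry little IGF1 receptor, and insulin represses Igfbp1 through FOXO factors.

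The labels name mammary as the tissue, yet 0 of 8 mammary epithelial markers were above background on any array. The Ddb1 probe gave a signal of 205 to 317 in the EpCAM+ samples, 169 in mutant hepatocytes and 499 in wild type hepatocytes. Where this probe lies relative to the deleted part is not known here. All 9 cholangiocyte markers that could be tested rose in EpCAM+ cells against hepatocytes and 9 of 10 hepatocyte markers fell. Over 8866 genes tested at their brightest probe, 11.6% rose and 10.5% fell. A gene was tested if it was above background on every array of at least 1 cell kind. Markers seen in a single cell kind enter because they are high there, so these counts describe the markers that passed and do not test what the cells are. The sorted antigen Epcam itself was dim, at 112 to 177 in EpCAM+ cells and not above background in Alb-Cre+/- cells or in hepatocytes. Between 11429 and 17152 probes were above background on each array, with the fewest in wild type hepatocytes. The lowest signal above background was 110 to 119 on the other arrays and 159 on that of wild type hepatocytes. Member probes were read from 28 to 67 beads each, with a standard error over beads of 3.82% to 8.88% of the signal, which covers the reading of an array and not the spread between mice.

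Promoter sequences are shown for both members whose upstream bases held a motif of the hormone pathways above. The 250 bases before each annotated start (RefSeq, GRCm38.p6) were searched on both strands for TTCNNNGAA, the core bound by STAT factors, and for CAAAACA, a core bound by FOXO factors. Among 32851 mouse promoters, 7.02% held the STAT core and 5.56% the FOXO core. Capitals mark the match, in Igfbp1 (chr11:7197537-7197786, plus strand) and in Igfals (chr17:24877594-24877843, plus strand).
Igfbp1: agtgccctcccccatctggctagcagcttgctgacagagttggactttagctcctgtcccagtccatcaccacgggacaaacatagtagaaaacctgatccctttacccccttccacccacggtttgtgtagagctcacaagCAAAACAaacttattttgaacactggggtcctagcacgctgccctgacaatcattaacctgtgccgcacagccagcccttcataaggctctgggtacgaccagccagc
Igfals: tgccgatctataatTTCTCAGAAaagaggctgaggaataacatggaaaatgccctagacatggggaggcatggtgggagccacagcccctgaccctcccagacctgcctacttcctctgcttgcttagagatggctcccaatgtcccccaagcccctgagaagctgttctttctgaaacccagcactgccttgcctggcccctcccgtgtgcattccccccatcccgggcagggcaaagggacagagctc
The FOXO core lay 108 bases before the start of Igfbp1, and the STAT core lay 236 bases before the start of Igfals. A later annotated start of Igfals held another STAT core, 58 bases before it. These letters are a description of the sequence, and the windows searched for the remaining 8 members held neither core.

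**Figure D1:**
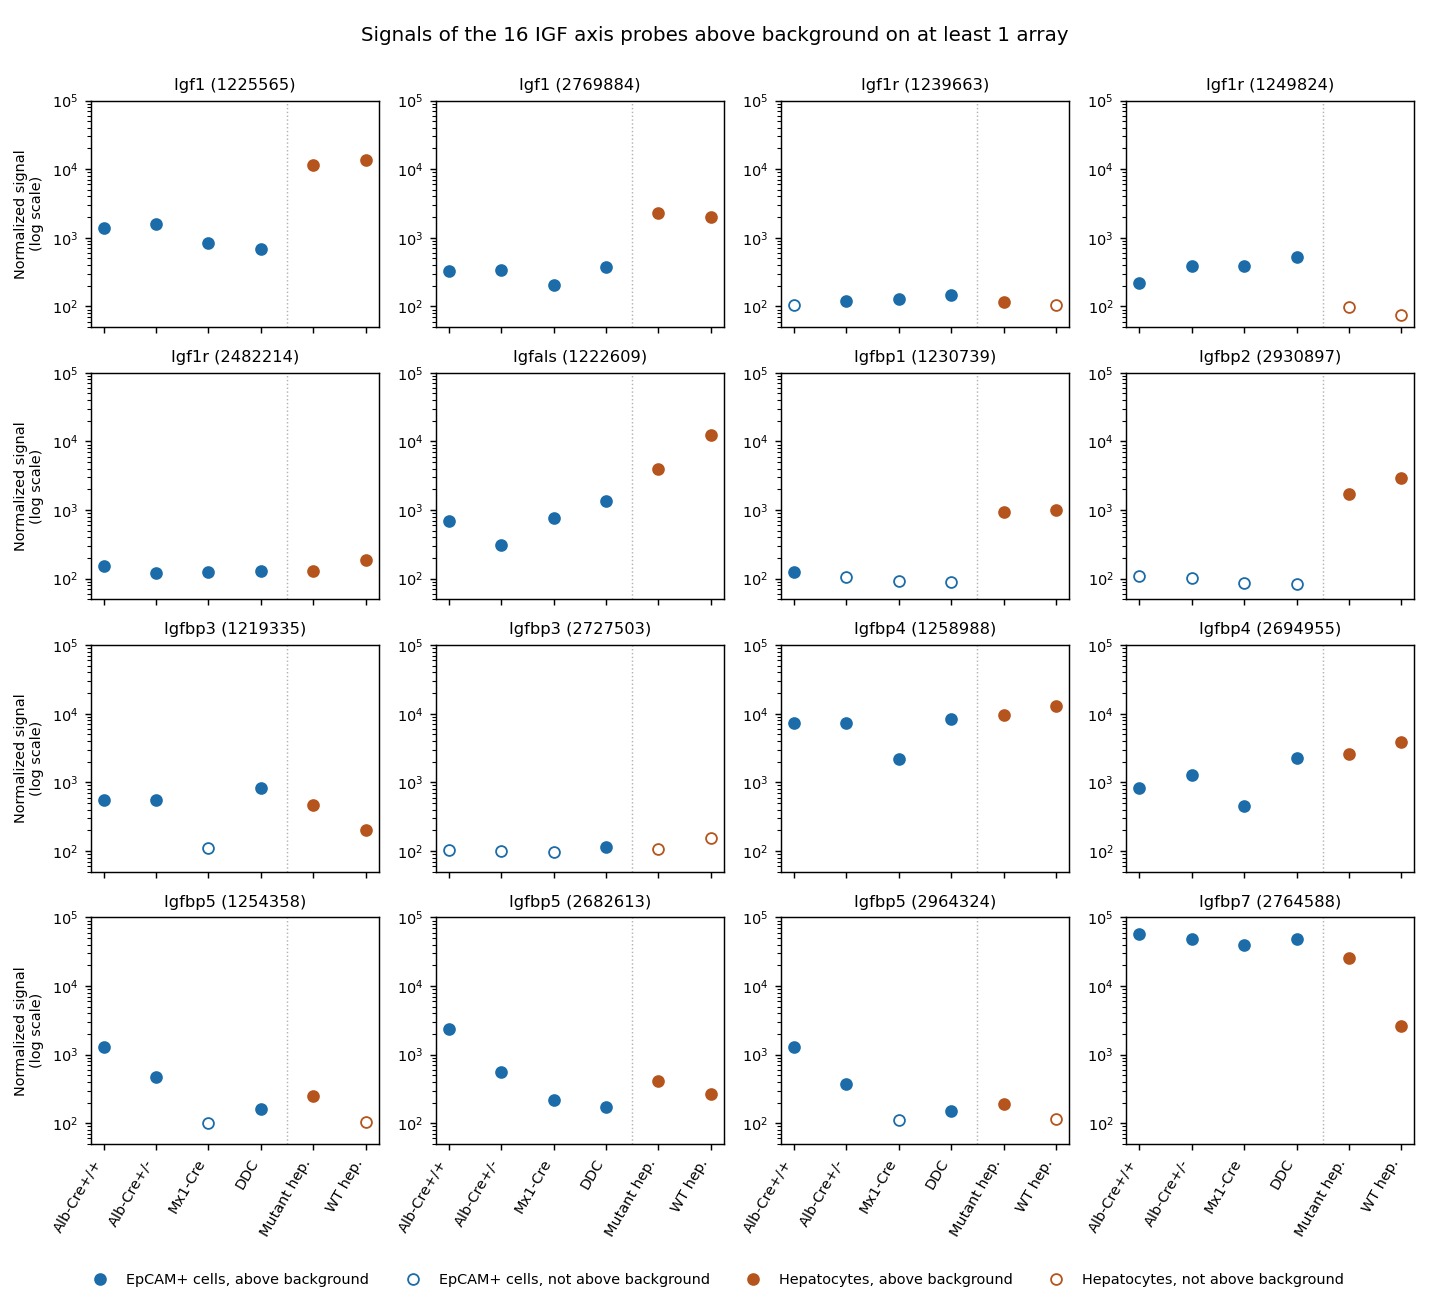
Normalized signal (log axis) of the 16 probes above background on at least 1 array, 1 panel a probe with its ILMN number, in the 4 EpCAM+ samples (blue) and the 2 hepatocyte samples (brown). Open circles are not above background, and error bars (bead standard error, 3.82% to 8.88%) are mostly smaller than the circles. Igf1, Igfals, Igfbp1, Igfbp2 and Igfbp4 lie lower on all 4 EpCAM+ arrays than on both hepatocyte arrays. Igfbp7 and Igf1r at ILMN_1249824 lie higher.

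Igf1, the ligand, was read by 2 probes on chromosome 10 and was high in hepatocytes of either genotype. At ILMN_1225565 the normalized signal was 1391 for Alb-Cre+/+, 1578 for Alb-Cre+/-, 832 for Mx1-Cre and 676 for DDC EpCAM+ cells, against 11322 in mutant and 13512 in wild type hepatocytes. At ILMN_2769884 it was 331 for Alb-Cre+/+, 343 for Alb-Cre+/-, 207 for Mx1-Cre and 372 for DDC EpCAM+ cells, against 2326 in mutant and 1980 in wild type hepatocytes. Every EpCAM+ sample thus lay below both hepatocyte samples at both probes. With the 4 EpCAM+ arrays set against the 2 hepatocyte arrays in limma, Igf1 was 11.7-fold lower at ILMN_1225565 (log2 difference -3.55, SE 0.39, adjusted p = 6.99e-04) and 7.02-fold lower at ILMN_2769884 (log2 difference -2.81, SE 0.37, adjusted p = 0.00147). These calls pool the models as if they were replicates, so the p-values measure the spread between models, and an exact test of 4 against 2 arrays could not go under p = 0.0667. In bulk RNA, fewer cells of a type and less RNA per cell cannot be told apart. Summed over 12 hepatocyte markers, the signal was 17770 to 57463 in EpCAM+ cells and 167824 to 226970 in hepatocytes, with 5 to 9 and 10 of the 12 above background. Without Ttr, the brightest of them, it was 3035 to 10903 in EpCAM+ cells and 116648 to 170380 in hepatocytes (a sum chosen after seeing the data, as are those without 1 gene below). Their part in the Igf1 difference, and in those of the other members below, was not tested.

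Mutant and wild type hepatocytes were close in Igf1, which was 1.19-fold lower in the mutant at ILMN_1225565 and 1.17-fold higher at ILMN_2769884 (a log2 ratio of 0.23, or 0.91 with median scaling). Across the EpCAM+ samples, each Igf1 probe gave its own order. Relative to DDC EpCAM+ cells, ILMN_1225565 was higher by 2.06-fold for Alb-Cre+/+, by 2.33-fold for Alb-Cre+/- and by 1.23-fold for Mx1-Cre. ILMN_2769884 was lower than in DDC EpCAM+ cells, by 1.12-fold for Alb-Cre+/+, by 1.09-fold for Alb-Cre+/- and by 1.80-fold for Mx1-Cre. With median scaling in place of quantile normalization, the log2 ratio over DDC at ILMN_1225565 was 0.43 instead of 1.04 for Alb-Cre+/+ and 0.83 instead of 1.22 for Alb-Cre+/-, under 2-fold in both. The direction of Igf1 between mutant and DDC EpCAM+ cells therefore depended on the probe.

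Igf1r, the receptor tyrosine kinase for IGF1, was read by 4 probes, of which 1 was above background on no array. At ILMN_1249824 the signal was 221 for Alb-Cre+/+, 389 for Alb-Cre+/-, 389 for Mx1-Cre and 533 for DDC EpCAM+ cells, against 97.6 in mutant and 75.8 in wild type hepatocytes, neither of which was above background. This probe was thus detected in all EpCAM+ samples and in neither hepatocyte sample, a difference of at least 2.70-fold (log2 difference 1.67, SE 0.38, limma adjusted p = 0.0174). The adjusted p was 0.0872 without mutant hepatocytes and 0.166 without wild type hepatocytes. At ILMN_2482214 all 6 samples were dim but above background, at 122 to 152 in EpCAM+ cells and 129 to 189 in hepatocytes (log2 difference -0.25, limma adjusted p = 0.389). ILMN_1239663 ran from 107 to 145 in EpCAM+ cells and was at 116 in mutant and 105 in wild type hepatocytes. Of the hepatocyte samples, the mutant was above background at this probe and the wild type was not. The 3 probes thus did not give the receptor 1 direction, and some detected it in hepatocytes. Within the EpCAM+ samples, ILMN_1249824 was lower than in DDC cells by 2.42-fold for Alb-Cre+/+, by 1.37-fold for Alb-Cre+/- and by 1.37-fold for Mx1-Cre.

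Igfals, the acid-labile subunit that lengthens the stay of IGF1 in blood, was 688 for Alb-Cre+/+, 305 for Alb-Cre+/-, 775 for Mx1-Cre and 1359 for DDC EpCAM+ cells, against 3997 in mutant and 12254 in wild type hepatocytes. All EpCAM+ samples lay below both hepatocyte samples, a 10.2-fold lower mean (log2 difference -3.35, SE 0.63, limma adjusted p = 0.00758). Without wild type hepatocytes the log2 difference was -2.54 with an adjusted p of 0.174, and without mutant hepatocytes it was -4.16 with an adjusted p of 0.0315. Unlike Igf1, Igfals also differed between the hepatocyte samples, 3.07-fold lower in the mutant. Among EpCAM+ samples the mutants lay below DDC, by 1.98-fold for Alb-Cre+/+, by 4.46-fold for Alb-Cre+/- and by 1.75-fold for Mx1-Cre. With median scaling the log2 ratio of Alb-Cre+/+ over DDC was -1.48 in place of -0.98, past 2-fold. Summed hepatocyte markers without Ttr were 7059 for Alb-Cre+/+, 10903 for Alb-Cre+/- and 3798 for Mx1-Cre, against 3035 for DDC EpCAM+ cells, and their part in the Igfals order was not tested.

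Igfbp1 and Igfbp2, small binding proteins that hepatocytes secrete more of during fasting, were bright in both hepatocyte samples and at or near background in EpCAM+ cells. Igfbp1 gave 126 for Alb-Cre+/+, 106 for Alb-Cre+/-, 92.3 for Mx1-Cre and 89.1 for DDC EpCAM+ cells, of which Alb-Cre+/+ alone was above background, against 938 in mutant and 1000 in wild type hepatocytes. Igfbp2 at ILMN_2930897 gave 109 for Alb-Cre+/+, 102 for Alb-Cre+/-, 87.4 for Mx1-Cre and 84.0 for DDC EpCAM+ cells, all not above background, against 1705 in mutant and 2903 in wild type hepatocytes. Igfbp1 was at least 8.37-fold lower in EpCAM+ cells (log2 difference -3.04, SE 0.26, limma adjusted p = 2.58e-04), and Igfbp2 at least 19.5-fold lower (log2 difference -4.28, SE 0.34, adjusted p = 2.27e-04). Each bound sets an EpCAM+ array at its lowest detected signal, or at the probe's own signal where that is higher. Between the hepatocyte samples Igfbp1 was 1.07-fold lower in the mutant, where median scaling gave a log2 ratio of 0.67 in place of -0.09, and Igfbp2 was 1.70-fold lower. A further Igfbp2 probe, ILMN_1236788, was not above background on any array, also in hepatocytes where ILMN_2930897 was bright.

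Igfbp3, the main carrier of IGF1 in blood, which in rat liver is made mainly by non-parenchymal cells, did not split by cell kind. ILMN_1219335 gave 561 for Alb-Cre+/+, 549 for Alb-Cre+/-, 111 for Mx1-Cre and 829 for DDC EpCAM+ cells, against 468 in mutant and 200 in wild type hepatocytes. The Mx1-Cre sample was not above background and set the EpCAM+ group over both sides of the hepatocyte samples (log2 difference 0.44, limma adjusted p = 0.703). Without wild type hepatocytes the log2 difference was -0.18. Igfbp3 was 2.33-fold higher in mutant than in wild type hepatocytes. In Mx1-Cre it was at least 7.21-fold lower than in DDC EpCAM+ cells, where Alb-Cre+/+ and Alb-Cre+/- were 1.48-fold and 1.51-fold lower. With median scaling the log2 ratio over DDC was -1.07 in place of -0.56 for Alb-Cre+/+, past 2-fold. For Alb-Cre+/- it was -0.88 in place of -0.59. A second probe, ILMN_2727503, was above background only in DDC EpCAM+ cells, at 115. Igfbp3 is the next protein-coding gene to Igfbp1 on chromosome 11, and the neighbours differed in pattern, with Igfbp1 in hepatocytes and Igfbp3 in both kinds of cells.

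Igfbp4, an inhibitor of IGF action that the protease PAPP-A cleaves, was bright on all arrays and lowest in Mx1-Cre EpCAM+ cells. ILMN_1258988 gave 7243 for Alb-Cre+/+, 7215 for Alb-Cre+/-, 2163 for Mx1-Cre and 8298 for DDC EpCAM+ cells, against 9667 in mutant and 13152 in wild type hepatocytes. ILMN_2694955 gave 828 for Alb-Cre+/+, 1263 for Alb-Cre+/-, 447 for Mx1-Cre and 2229 for DDC EpCAM+ cells, against 2599 in mutant and 3899 in wild type hepatocytes. Both probes lay below both hepatocyte samples on every EpCAM+ array, yet neither passed the test, with log2 differences of -1.03 (SE 0.53, limma adjusted p = 0.194) and -1.66 (SE 0.58, adjusted p = 0.0754). With median scaling ILMN_1258988 passed (log2 difference -1.71, adjusted p = 0.0393), and without DDC cells ILMN_2694955 passed (log2 difference -2.04, adjusted p = 0.0318). Mx1-Cre was 3.84-fold and 4.99-fold lower than DDC EpCAM+ cells at these probes, Alb-Cre+/+ was 1.15-fold and 2.69-fold lower, and Alb-Cre+/- 1.15-fold and 1.76-fold lower. Igfbp3 and Igfbp4 were thus both lowest in Mx1-Cre among the EpCAM+ samples.

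Igfbp5, a binding protein that also attaches to extracellular matrix, was highest in Alb-Cre+/+ EpCAM+ cells at all 3 probes. ILMN_2682613 gave 2351 for Alb-Cre+/+, 550 for Alb-Cre+/-, 218 for Mx1-Cre and 170 for DDC EpCAM+ cells, against 419 in mutant and 265 in wild type hepatocytes. ILMN_1254358 gave 1302 for Alb-Cre+/+, 465 for Alb-Cre+/-, 100.4 for Mx1-Cre and 163 for DDC EpCAM+ cells, against 246 in mutant and 104 in wild type hepatocytes, where the Mx1-Cre and wild type values were not above background. ILMN_2964324 gave 1281 for Alb-Cre+/+, 368 for Alb-Cre+/-, 111 for Mx1-Cre and 150 for DDC EpCAM+ cells, against 193 in mutant and 115 in wild type hepatocytes, with the same samples not above background. Alb-Cre+/+ EpCAM+ cells exceeded DDC EpCAM+ cells by 13.8-fold at ILMN_2682613, by 7.97-fold at ILMN_1254358 and by 8.51-fold at ILMN_2964324. Alb-Cre+/- cells exceeded them by 3.23-fold, 2.84-fold and 2.45-fold at these probes in the same order. Mx1-Cre cells were 1.28-fold higher than DDC cells at ILMN_2682613 and lower at ILMN_1254358 and ILMN_2964324, by at least 1.42-fold and 1.31-fold. Against mutant hepatocytes of the same genotype, the Alb-Cre+/+ EpCAM+ cells were 5.28-fold to 6.64-fold higher. With median scaling the log2 ratios of this comparison were 1.90 to 2.32 in place of 2.40 to 2.73.

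Pooled by cell kind, Igfbp5 did not pass (ILMN_2682613 log2 difference 0.49, limma adjusted p = 0.731, and -0.29 without Alb-Cre+/+ cells). Nor did it pass for the 3 mutant EpCAM+ samples against DDC, where the log2 difference was 1.95 (SE 1.44, adjusted p = 0.902) at that probe. Markers of endothelial and stellate cells, which can express Igfbp5, differed between these samples too. Over 12 endothelial markers the summed signal was 24022 for Alb-Cre+/+, 33367 for Alb-Cre+/- and 16997 for Mx1-Cre cells, against 2737 for DDC cells, with 11, 12, 12 and 6 of the 12 above background in this order. Without the brightest, Clec4g, it was 7685 for Alb-Cre+/+, 9587 for Alb-Cre+/- and 4855 for Mx1-Cre cells, against 1462 for DDC cells. Over 12 stellate cell and fibroblast markers it was 8494 for Alb-Cre+/+, 21364 for Alb-Cre+/- and 12370 for Mx1-Cre cells, against 4304 for DDC cells, with 6, 8, 5 and 8 above background. Most of the stellate sum in Alb-Cre+/- and Mx1-Cre cells was Reln, a gene that the study picked from these samples as higher in the mutant than after DDC. Without Reln it was 4428 for Alb-Cre+/+, 5846 for Alb-Cre+/- and 2941 for Mx1-Cre cells, against 3988 for DDC cells, so that the mutant samples lay on both sides of DDC. Lrat and Hand2 of this list were not above background on any array. The part of these cells in the Igfbp5 signal was not tested. Igfbp5 and Igfbp2 are adjacent genes on chromosome 1, and Igfbp2 was not above background on any EpCAM+ array.

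Igfbp7, a secreted protein with low affinity for IGFs that vessel cells among others secrete, was near the top of the scale in EpCAM+ cells. ILMN_2764588 gave 56590 for Alb-Cre+/+, 49186 for Alb-Cre+/-, 39448 for Mx1-Cre and 48460 for DDC EpCAM+ cells, against 25604 in mutant and 2618 in wild type hepatocytes, where the brightest probe of any array read 67065. The EpCAM+ mean was 5.87-fold higher (log2 difference 2.55, SE 0.73, limma adjusted p = 0.0397). This call was lost whenever an EpCAM+ array was left out (adjusted p 0.0681 to 0.0913). Without wild type hepatocytes the log2 difference was 0.91 (adjusted p = 0.131), and without mutant hepatocytes it was 4.20 (adjusted p = 7.95e-04). The hepatocyte samples thus differed more from each other at Igfbp7, 9.78-fold higher in the mutant, than mutant hepatocytes did from the EpCAM+ cells of that genotype, which were 2.21-fold higher (a log2 ratio of 1.14, or 0.51 with median scaling). Markers of other cells also differed between the hepatocyte samples. Cholangiocyte markers were over 2-fold higher in the mutant for 6 of 10, endothelial markers for 4 of 12, stellate cell markers for 5 of 12 and macrophage markers for 8 of 11. In mutant and in wild type hepatocytes, the summed signals were 9920 and 2931 for cholangiocyte, 16873 and 3641 for endothelial, 16735 and 3937 for stellate cell, and 10588 and 2796 for macrophage markers. Without Clec4g the endothelial sums were 6036 and 2168, and without Reln the stellate cell sums were 8088 and 2060. Their part in the Igfbp7 signal was not tested. The other 4 Igfbp7 probes, at 76.8 to 104, were not above background on any array. Igfbp6, at 89.8 to 106, was not above background either, so that neither gave a level.

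**Figure D2:**
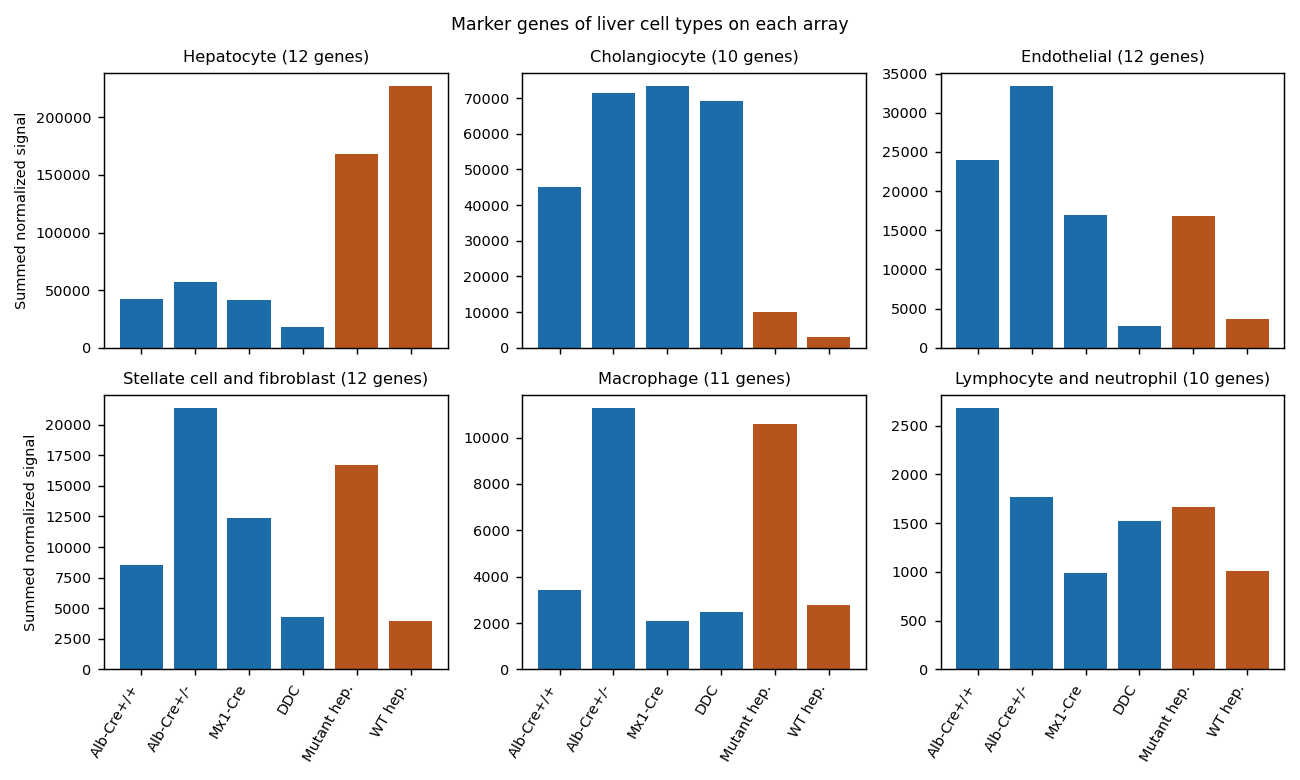
Summed normalized signal (linear axis from 0) of marker genes of 6 cell types in the 4 EpCAM+ samples (blue) and the 2 hepatocyte samples (brown), 1 bar a sample with no replicate. Cholangiocyte markers are high in all EpCAM+ samples (45156 to 73294), and endothelial, stellate cell and macrophage markers are higher in mutant than in wild type hepatocytes.

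Taken over the axis, 12 member probes of 9 genes entered the comparison of EpCAM+ cells with hepatocytes, having passed a filter of detection on every array of either group. Of these, 2 rose (Igf1r at ILMN_1249824 and Igfbp7) and 5 fell (both Igf1 probes, Igfals, Igfbp1 and Igfbp2), 8 had an unadjusted p under 0.05, and 5 did not pass. Over all 13740 probes tested, 10.1% rose and 10.7% fell. The median log2 difference was -1.34 over the 12 member probes and 0.04 over all probes. EpCAM+ and hepatocyte values did not overlap for 9 of the 12, as for 46.2% of all probes tested. Probes seen in a single cell kind pass that filter because they are high there, so these shares describe the probes that passed.

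**Figure D3:**
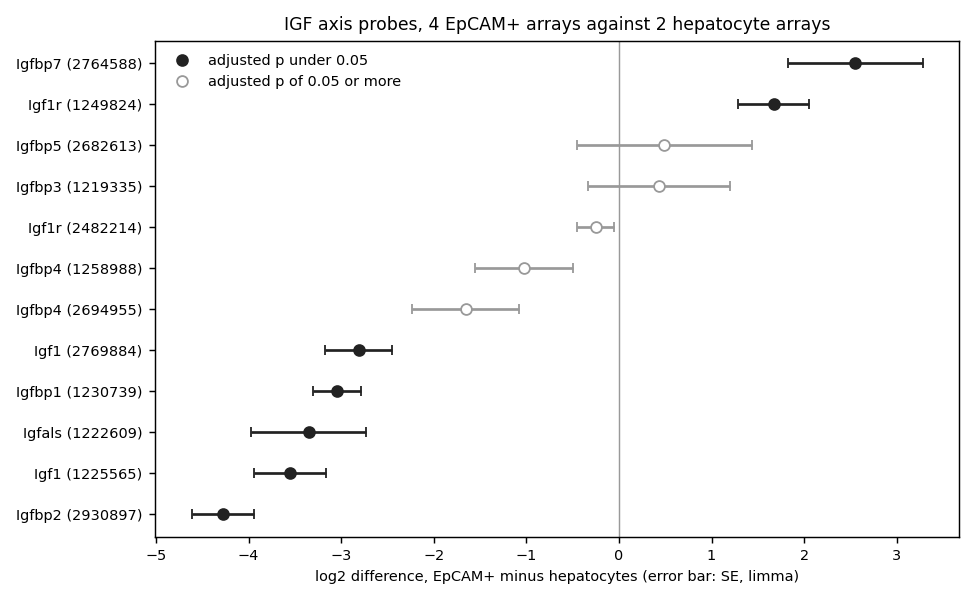
Log2 difference (EpCAM+ minus hepatocytes, error bars SE) of the 12 member probes tested by limma, 4 EpCAM+ arrays against 2 hepatocyte arrays, filled where the adjusted p was under 0.05. Igfbp7 and Igf1r at ILMN_1249824 pass above 0, and both Igf1 probes, Igfals, Igfbp1 and Igfbp2 pass below 0. The other Igf1r probe lies below 0 and does not pass.

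For the 3 mutant EpCAM+ samples against the DDC sample, 14 member probes of 7 genes were tested and 0 passed in either direction. Over all 17467 probes 0.0401% were higher and 2.68% were lower. The lowest member adjusted p by limma was 0.333, for Igf1r at ILMN_1239663 (log2 difference -0.26), which was also the member with an unadjusted p under 0.05. With 1 DDC array the test borrowed its spread from the other groups. Probes above background on the DDC array alone also entered, so the shares over all probes describe those that passed this filter. Calls in either direction were all lost with median scaling, with no floor and without trend. Intervals were wide, with an SE of 1.44 for the log2 difference of Igfbp5 at ILMN_2682613 and of 1.20 for Igfbp3 at ILMN_1219335, so that a lack of calls does not show equal levels.

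Ratios between single arrays, which have no test, were counted past 2-fold and set beside the share of all probes past 2-fold in the same direction. Wild type hepatocytes stand under 5 of these ratios and DDC cells under 3, so that they are not independent. In mutant over wild type hepatocytes, 2 of 14 member probes were higher (Igfbp3 and Igfbp7) and 1 was lower (Igfals), beside 7.8% higher and 8.47% lower of all probes (17.3% and 3.23% with median scaling). With 14 probes, these counts lie near what those shares give.

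Over wild type hepatocytes, each EpCAM+ sample had a larger share of member probes past 2-fold lower than the array had. On the higher side the member share was also larger in both Alb-Cre samples, and near that of the array in Mx1-Cre and DDC cells. Probes of the same gene are counted separately. Alb-Cre+/+ cells had 5 of 14 higher and 6 lower, beside 16.3% and 16.7% of all probes. Alb-Cre+/- cells had 6 of 15 higher and 6 lower, beside 14.6% and 14.8% (16.5% and 10.3% with median scaling). Mx1-Cre cells had 2 of 13 higher and 7 lower, beside 14.8% and 14.7% (20.4% and 9.21% with median scaling). DDC cells had 3 of 16 higher and 5 lower, beside 14.7% and 14.8% (21.3% and 10.9% with median scaling). In this order of samples, Igf1 at ILMN_1225565 was lower by 9.71-fold, 8.56-fold, 16.2-fold and 20.0-fold, and Igfals by 17.8-fold, 40.2-fold, 15.8-fold and 9.02-fold. Igfbp7 was higher by 21.6-fold, 18.8-fold, 15.1-fold and 18.5-fold. With median scaling the log2 ratios of Alb-Cre+/+ cells were -4.13 in place of -3.28 for Igf1 and -4.89 in place of -4.16 for Igfals, and that of Alb-Cre+/- cells was -3.73 in place of -3.10 for Igf1. Against mutant hepatocytes, Alb-Cre+/+ EpCAM+ cells had 4 of 15 member probes higher (3 of Igfbp5 and 1 of Igfbp7) and 6 lower, beside 12.7% and 11.5% of all probes (7.84% and 17.9% with median scaling).

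Over DDC EpCAM+ cells, Alb-Cre+/+ cells had 4 of 15 member probes higher (3 of Igfbp5 and 1 of Igf1) and 2 lower (1 of Igf1r and 1 of Igfbp4), beside 6.98% and 6.83% of all probes (5.13% and 13.1% with median scaling). Alb-Cre+/- cells had the same genes on the higher side, 4 of 14, and Igfals on the lower, beside 4.74% and 3.92% (4.38% and 6.83% with median scaling). Mx1-Cre cells had 0 of 14 higher and 3 lower (Igfbp3 and both Igfbp4 probes), beside 4.12% and 4.2%. Igfbp5 was thus past 2-fold on the higher side at all 3 probes in both Alb-Cre samples and at none in the Mx1-Cre sample, a difference between single samples that was not tested. Igf1 was past 2-fold in the Alb-Cre samples at ILMN_1225565 only, and not there with median scaling.

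**Figure D4:**
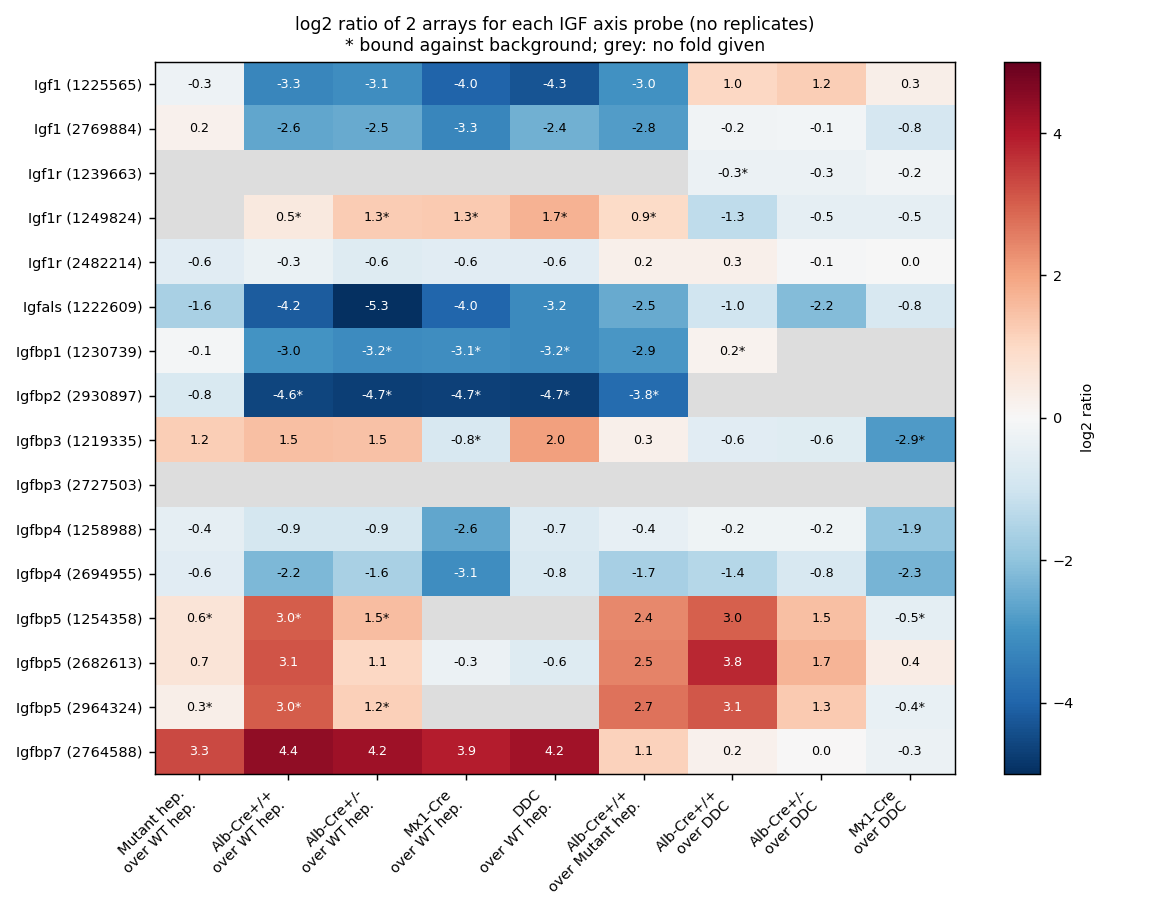
Log2 ratio between 2 arrays (colour and number) for the 16 detected member probes (rows) in 9 comparisons (columns), no replicates. An asterisk marks a bound against background, and grey cells have no fold. The columns over wild type hepatocytes are blue for Igf1, Igfals, Igfbp1 and Igfbp2 and red for Igfbp7 in all 4 EpCAM+ samples. Both Igfbp4 probes are blue there too, at -0.66 where weakest. Igfbp5 is red in the Alb-Cre columns over DDC.

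Other genes of the pathway were read at their brightest probe, in the same fit of EpCAM+ cells against hepatocytes, where 11.6% of 8866 genes rose and 10.5% fell. Of 10 other ligands, receptors and IGF2 mRNA binding proteins, 3 were tested and 0 passed by limma (1 lower at an unadjusted p under 0.05, median log2 difference -0.86). Igf2, the fetal ligand, was not among those tested, and gave 428 for Alb-Cre+/+ and 554 for Alb-Cre+/- EpCAM+ cells, 106 for Mx1-Cre and 94.6 for DDC cells (neither above background), 36225 in mutant hepatocytes, and 92.7 in wild type hepatocytes (not above background). It was thus at least 228-fold higher in mutant than in wild type hepatocytes, in the samples where Igf1 differed by 1.19-fold at most in the deposited normalized values. The age of either hepatocyte sample is not given, so that age and genotype cannot be told apart in this difference.

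Of 14 genes between growth hormone and Igf1, 9 were tested, 2 rose and 2 fell (median log2 difference -0.17). The growth hormone receptor Ghr was 629 for Alb-Cre+/+, 753 for Alb-Cre+/-, 538 for Mx1-Cre and 414 for DDC EpCAM+ cells, against 6425 in mutant and 7860 in wild type hepatocytes (log2 difference -3.64, limma adjusted p = 3.09e-04). Hnf4a, a hepatocyte nuclear factor that is also in the hepatocyte list, fell (-1.62, adjusted p = 0.0162). The feedback inhibitors Socs2 (1.59, adjusted p = 0.0477) and Socs3 (1.82, adjusted p = 0.0158) rose. Cish, also an inhibitor in this list, lay the other way and did not pass (-0.98, adjusted p = 0.154). Socs1 was not above background on any array. Ghr and Igf1 were thus both low in the 4 EpCAM+ samples and high in both hepatocyte samples.

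Of 21 genes that carry the insulin and IGF signal inside the cell, 14 were tested, 0 rose (1 higher at an unadjusted p under 0.05) and 1 fell, Eif4ebp1, a translation inhibitor under mTOR (log2 difference -1.30, limma adjusted p = 0.0203), with a list median of 0.12. Of 14 proteases that cut binding proteins and their inhibitors, 8 were tested. The matrix proteases Mmp7 (2.72, adjusted p = 0.0492) rose and Mmp2 (-2.51, adjusted p = 0.00469) fell, with a list median of 1.15. Of 10 genes that share regulation with Igfbp1 in hepatocytes, 7 were tested, 2 rose and 3 fell (median -0.84). The gluconeogenic enzymes Pck1 (-4.09, adjusted p = 0.00195) and G6pc (-5.28, adjusted p = 0.00265) fell with Igfbp1, as did Trib3, an inhibitor of AKT (-1.92, adjusted p = 0.0238). The stress factors Atf3 (4.09, adjusted p = 0.00905) and Atf4 (1.43, adjusted p = 0.00969) rose.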

How the data were processed

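Total RNA of 6 samples, 1 a condition, was hybridised to Illumina mouse arrays. The authors summarised each probe over its beads in GenomeStudio, and deposited non-normalized signal intensities, a detection p-value, the bead standard error and the bead number of each probe, and a second set of intensities that they quantile normalized across the arrays. The normalized intensities ranked the probes of each array as its own non-normalized signals did (rank correlation 1), and were used here with the deposited detection p-values. The platform annotation pairs 34885 probes with a single gene symbol and 18 with several, and leaves 10378 without any. All probes of the 10 members are named, and of each pathway list at most 4 genes past the test or past 2-fold, with any gene a result turned on. The members and lists were chosen with earlier results of these data known.

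Signals were set to no less than 115, the median over arrays of the lowest detected signal,, taken to log2 and fitted with limma 3.58.1 (lmFit, eBayes with trend) in R 4.3.3, over probes above background on every array of at least 1 group, with Benjamini-Hochberg adjustment over all of them and a threshold of 0.05. The comparisons were 4 EpCAM+ against 2 hepatocyte arrays, and 3 mutant EpCAM+ arrays against DDC, where the fit held hepatocytes as a further group that shares the spread. The floor shrinks fold changes of dim probes. Ratios between single arrays used the normalized intensities with no floor, and a side not above background gave a bound. Alternatives were own quantile normalization, median scaling, normexp background (offset 16), a detection p under 0.01, no floor, 2 wider filters, no trend, 1 probe a gene, only EpCAM+ arrays, and each array left out. The aligned position of the probes is not used here, since the build of the annotation is not given in the sources used here. Promoters were read with Python 3.11.15 from RefSeq (GRCm38.p6), in which all 10 members had a start.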

Additional observations from a re-analysis of the deposited data

Results flagged for a closer look

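Of 15 member probes, 2 had an EpCAM+ sample set apart from the other 3 by Dixon's ratio, the gap to the nearest sample over the whole range. Chance alone marks about 1 in 20 groups, or 0.75 of 15 probes. Igfbp4 at ILMN_1258988 had its lowest value in Mx1-Cre cells, with a ratio of 0.896. Igfbp1 had its highest value in Alb-Cre+/+ cells, with a ratio of 1, since the other 3 samples were not above background and stood at the floor. Any value above the floor would have given this ratio, so the chance rate does not hold for this mark.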

How the results depend on the processing

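Both Igf1 probes, Igfbp1 and Igfbp2 kept direction and call under all alternatives in which they were fitted. Across the 12 member probes, 154 of the alternative values kept direction and call, 16 lost the call, 2 gained it and 3 changed sign: Igfbp3 at ILMN_1219335 (-0.1763) and Igf1r at ILMN_2482214 (0.0293) without wild type hepatocytes, and Igfbp5 at ILMN_2682613 (-0.2877) without Alb-Cre+/+ cells. With an array left out they ran from -0.1763 to 1.0517, from -0.5278 to 0.0293 and from -0.2877 to 0.9752. Igfals lost its call with no detection filter (adjusted p = 0.169) and with probes above background on at least 1 array (0.0579), as did Igf1r at ILMN_1249824 (0.164 and 0.0778) and Igfbp7 (0.437 and 0.170), which also lost it with median scaling (0.0783) and without trend (0.0584), all by limma. Normexp background gave larger log2 differences for Igfbp1 (-3.80), Igfbp2 (-5.10) and Igf1r at ILMN_1249824 (2.30), with their calls kept.

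Of member probes in EpCAM+ cells against hepatocytes, 2 rose, and 1 with median scaling, 1 without trend, 0 with no detection filter, 0 with probes above background on at least 1 array, and 0 to 1 with an array left out, 0 without wild type hepatocytes. The 5 that fell were 4 to 6 with an array left out. Of all probes, 1382 rose, and 868 with median scaling, 157 with no detection filter, 590 with probes above background on at least 1 array, and 356 (without wild type hepatocytes) to 1404 with an array left out, 791 without Alb-Cre+/- cells. The 1474 that fell became 421 with no filter, 951 with probes above background on at least 1 array, 936 with 1 probe a gene, and 1013 to 2767 (without mutant hepatocytes) with an array left out.

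In mutant against DDC EpCAM+ cells, 7 probes were higher, and 0 with median scaling, with no floor, without trend or with 1 probe a gene, 4 with only EpCAM+ arrays, and 4 (without mutant hepatocytes) to 14 (without Mx1-Cre cells) with an array left out. The 468 lower were 0 with median scaling, no floor or no trend, 79 with 1 probe a gene, and 323 to 650 with an array left out. Of member probes, Igf1r at ILMN_1239663 was called lower with a detection p under 0.01 and without Mx1-Cre cells, and no other was under any alternative. With a detection p under 0.01 the floor was 132, and every sample but DDC (145) lay under it at this probe. The fit then had no spread within groups, so that this call cannot be told from an effect of the floor. Without Mx1-Cre cells, the samples other than DDC lay at 105 to 118, around the floor of 115.

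Of member probes past 2-fold, Mx1-Cre over wild type hepatocytes had 2 higher and 1 with a detection p under 0.01. Alb-Cre+/+ over DDC had 2 lower and 4 with median scaling, which added Igfals and Igfbp3 at ILMN_1219335. Alb-Cre+/- over DDC had 1 lower and 2 with median scaling, which added Igfbp4 at ILMN_2694955. The causes were not tested. No paired analysis was possible because each condition held 1 array. Signal over background limits Igfbp6, Igf1r, Igfbp1 and Igfbp2 in the cells where they were dim. The lowest normalized signal above background was highest in wild type hepatocytes, at 159, which limits bounds against that sample.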
